A study of Saccharomyces cerevisiae with 15 samples.

Results

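SET1 encodes the histone methyltransferase of budding yeast that acts in the COMPASS complex, and its deletion was compared with wild type across all genes of the deposited expression table. The 6 libraries of the comparison were 3 replicates of the set1 strain and 3 replicates of WT, each from Saccharomyces cerevisiae grown in YPD at 30 °C with polyadenylated RNA selected by oligo(dT). A gene was a member if it had at least 1 FPKM (fragments mapped to a gene, scaled to its length and to the library's mapped total) in 3 or more of these 6 libraries, which took 6318 of the 7126 genes in the table. The other 808 genes were not tested. 9 further libraries of ulp2, slx5 and ulp2 slx5 strains (3 each) were used to estimate the spread and to show where set1 stood among other mutants.

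The set1 strain is labelled MATalpha with the alleles his3Δ1 leu2Δ0 met15Δ0 ura3Δ0 lys2Δ0 and set1Δ::HIS3, in which HIS3 replaces SET1. The ulp2 (ulp2Δ::kanMX), slx5 (slx5Δ::kanMX) and ulp2 slx5 (both kanMX deletions) strains are also labelled MATalpha, with the same his3, leu2, met15, ura3 and lys2 alleles. WT is labelled MATa with his3Δ1 leu2Δ0 ura3Δ0 lys2Δ0 and no met15 allele. Every group is a single named strain, so the replicates are libraries of that strain, and nothing in the labels says whether they came from separate cultures. The p-values below therefore measure the spread between these libraries, which may be technical.

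COMPASS adds methyl groups to lysine 4 of histone H3 around the starts of transcribed genes, and Set1 is the only enzyme in budding yeast known to make this mark. The mark is read by, among others, the Set3 histone deacetylase complex, and it depends on ubiquitination of histone H2B by Rad6 and Bre1 and on the Paf1 complex. Loss of Set1 is known in yeast for weakened silencing near telomeres and at the ribosomal DNA, and for altered repression of scattered genes, including middle sporulation genes.

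Of the 6318 genes, 1426 were higher and 989 were lower in set1 than in WT at an adjusted p under 0.05 (limma on log2(FPKM + 1), Benjamini-Hochberg adjustment over all 6318). That is 38.2% of the genes called in either direction, 22.6% higher and 15.7% lower. The median log2 difference over all genes was 0.01. Differences of at least 2-fold were found for 218 of the higher genes (3.45% of all genes tested) and for 37 of the lower genes (0.586%). The split between higher and lower depended on the scaling: 59.0% of the called genes were higher with the FPKM as deposited, and 48.2% (1146 higher, 1230 lower) after quantile normalization. The 3 set1 and the 3 WT libraries did not overlap for 2754 genes, which is 43.6% of those tested. Where the spread was estimated from the set1 and WT libraries alone, 948 genes were higher and 545 were lower.

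**Figure D1:**
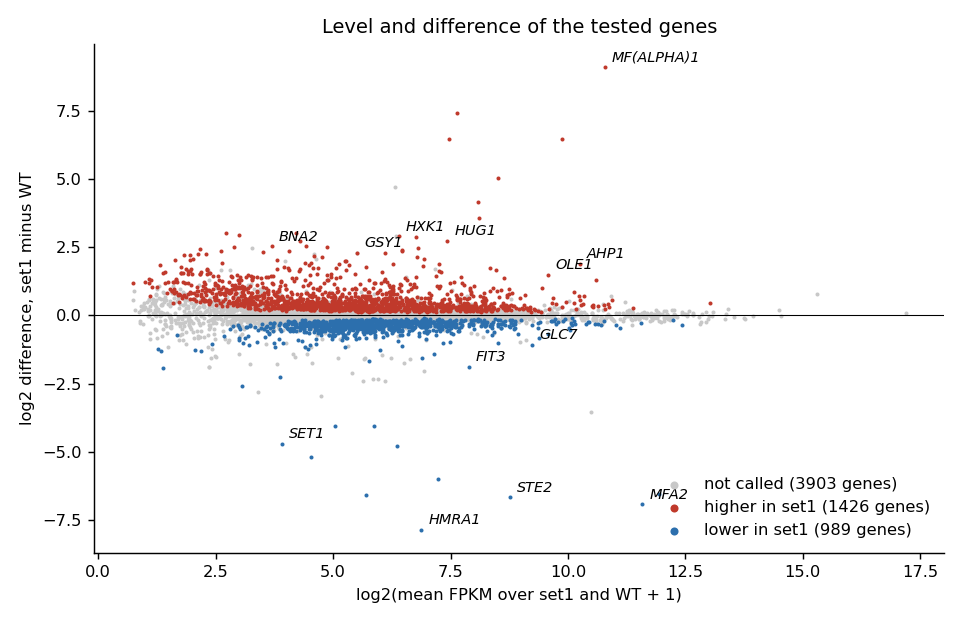
Difference between set1 and WT for each of the 6318 tested genes, with the mean level of both groups on the x axis (log2 of FPKM + 1) and the log2 difference, set1 minus WT, on the y axis. Each point is a gene, coloured by whether it was called higher (1426), lower (989) or not called, and the points farthest from 0 include SET1 and mating-type genes.

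Facts of the libraries bear on all of these values. Low FPKM values stood at whole multiples of the value of 1 fragment for 40 to 46 of the 45 to 50 low genes compared in each set1 library and for 45 to 58 of 51 to 62 in each WT library, within 0.02 of a fragment. The value of 1 fragment and a length offset were chosen in each library to raise this agreement, so it is not an independent check. The relative depth that follows from the fitted value of 1 fragment, with WT replicate 1 set at 1, was 0.527 for set1 replicate 0, 0.795 for set1 replicate 1 and 0.798 for set1 replicate 2, against 0.788 for WT replicate 0 and 0.928 for WT replicate 2. The shallowest library, set1 replicate 0, also listed the most genes at 0, with 819, against 694 and 690 in the other set1 libraries and 705 to 748 in the WT libraries. RPL41A and RPL41B together, which encode a very short ribosomal protein, held 8.51 to 21.7% of the summed FPKM in set1 libraries and 7.74 to 14.1% in WT libraries, with the highest share in set1 replicate 0. Without set1 replicate 0, 1262 genes were higher and 976 were lower.

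SET1 itself checked the labels. SET1 (YHR119W, build R64, chrVIII:346043-349285) had 0.0635, 0.125 and 0.125 FPKM in set1 cells, against 24.6, 31.4 and 27.8 FPKM in WT cells. The set1 values correspond to about 1 fragment in replicate 0 and 3 fragments in each of the other replicates, against 586, 948 and 779 fragments in the WT libraries, and no library of one group came near the other. Among the 3 annotated genes on each side of SET1, ORC6, a subunit of the origin recognition complex next to SET1, was higher, with 36.5, 35.5 and 36.4 FPKM in set1 cells, against 26.9, 27.04 and 26.3 FPKM in WT cells (chrVIII:344321-345628). Its log2 difference was 0.42 ± 0.06 (SE; adjusted p = 2.26e-04), and all 3 set1 libraries lay above all 12 other libraries of the series. LSM12 was lower (-0.27 ± 0.07, adjusted p = 0.00833). TOM71, MSH1, COX23 and CIA2 were not called, with log2 differences of -0.08, 0.06, -0.16 and 0.29.

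The marker genes were then set beside the labels. HIS3, a histidine synthesis gene of which his3Δ1 removes a part, had 176, 145 and 131 FPKM in set1 cells, against 82.8, 104 and 98.4 FPKM in WT cells. LYS2 had 0.0486, 0.128 and 0.0319 FPKM in set1 cells, against 0.0647, 0 and 0.0548 FPKM in WT cells, while LEU2 and URA3 were listed at 0 in every library. LYS2 averaged 46.2 FPKM in ulp2, 43.4 FPKM in slx5 and 36.99 FPKM in ulp2 slx5, which goes against the lys2Δ0 labels of these 3 strains. MET17, the sulfhydrylase gene that met15Δ0 would remove, had 293, 319.6 and 288 FPKM in set1 cells, against 153, 120.1 and 139 FPKM in WT cells, which goes against the label of the set1 strain. MET17 averaged 310.2 FPKM in ulp2, 0.727 FPKM in slx5 and 228 FPKM in ulp2 slx5, so that ulp2 and ulp2 slx5 also go against their met15Δ0 labels and slx5 does not.

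Mating type differed between the strains as labelled, and mating-type genes were among the farthest points of the comparison. All 5 alpha-specific genes were higher and all 7 a-specific genes were lower in set1. MF(ALPHA)1, a gene of the alpha-factor pheromone, had 3755, 3495 and 3323 FPKM in set1 cells, against 8.99, 3.47 and 4.73 FPKM in WT cells. STE3, the receptor for a-factor, had 364, 331 and 358 FPKM in set1 cells, against 3.92, 2.58 and 2.62 FPKM in WT cells. Neither gene had a set1 library near a WT library. Of the a-specific genes, STE2, the receptor for alpha-factor, had 8.17, 7.399 and 6.79 FPKM in set1 cells, against 845, 883 and 859.5 FPKM in WT cells. MFA1, an a-factor gene, had 134, 96.5 and 39.6 FPKM in set1 cells, against 8314, 6565 and 8366 FPKM in WT cells. BAR1, the protease that degrades alpha-factor, had 4.54, 5.01 and 4.65 FPKM in set1 cells, against 156, 155 and 162 FPKM in WT cells. Here too the groups were far apart in each case. HMRA1, a gene of a-cell identity that shares its sequence with MATA1, was listed at 0 in the 3 set1 libraries and had 271, 226 and 204 FPKM in the WT libraries, and MATALPHA1 was listed at 0 in all 6. HMRA1 passed the filter through WT alone. The rows YKL177W and YLR041W, which carry no annotation, were higher with STE3 and with AFB1, the genes of neighbouring systematic name. Strandedness of the counting was not stated, so reads of such pairs cannot be told apart.

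**Figure D2:**
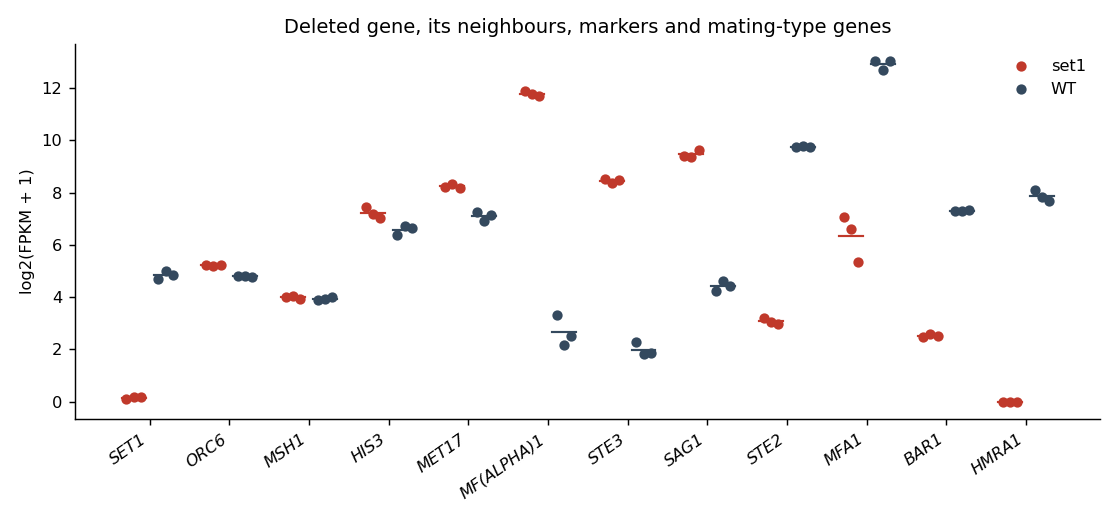
Level, as log2(FPKM + 1), of SET1, 2 of its neighbours, marker genes and mating-type genes in each library, with the 3 set1 libraries left of the 3 WT libraries for each gene and a bar at the mean. SET1 and HMRA1 lie at or near 0 in set1, and the alpha-specific genes MF(ALPHA)1, STE3 and SAG1 are higher in set1 while STE2, MFA1 and BAR1 are higher in WT.

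Since the strains differ in mating type, an effect of the set1 deletion and an effect of mating type cannot be told apart in the comparison with WT. Accordingly, set1 was also compared with the mean of ulp2 and slx5, both of which expressed the alpha-specific genes (STE3 averaged 308 FPKM in ulp2 and 398 FPKM in slx5). The ulp2 slx5 strain was left out of that mean, since it had a-type expression (HMRA1 averaged 211 FPKM) although its label says MATalpha. That comparison uses the same set1 libraries, and its own reference strains carry deletions and differ from set1 in LYS2 and, for slx5, in MET17, so its values are given beside those against WT and are not a second test of them. Some genes of chromosomes I and XII were also higher in ulp2 than in slx5 or WT, which enters that mean. SWD1 (chromosome I) had 80.3 to 85.2 FPKM in ulp2, 36.9 to 39.5 FPKM in slx5 and 41.1 to 49.1 FPKM in WT. CDC73 (chromosome XII) had 111 to 126, 59.4 to 67.1 and 67.7 to 77.5 FPKM. SSA1 of chromosome I was instead higher in slx5 than in ulp2. Whether whole chromosomes differ in ulp2 was not tested. The comparison with the mean of ulp2 and slx5 called 48.4% of the genes, 1585 higher (25.1%) and 1471 lower (23.3%). A further description is how many genes had all 3 set1 libraries outside the range of the 12 libraries of all other strains: 270 genes lay above them (4.27%) and 205 below (3.24%).

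Most genes that the pheromone pathway induces were higher in set1. Of 19 such genes tested, 14 were higher and 1 was lower in set1 than in WT, with a median log2 difference of 0.60. FIG1, needed for calcium influx and fusion during mating, had 32.7, 33.5 and 28.96 FPKM in set1 cells, against 2.97, 3.26 and 2.95 FPKM in WT cells. PRM6 and PRM1, pheromone-regulated membrane proteins, differed by 2.38 ± 0.13 and 1.79 ± 0.08. The 1 lower gene was GIC2, a Cdc42 effector in polarity (-0.73 ± 0.09), and the other 4 were not called. GIC2 was chosen for mention after its values were seen. Against the mean of ulp2 and slx5, 1 of the 19 was higher and 15 were lower, with a median of -0.39, and the other alpha-expressing strains had the higher FIG1 means (46.00 FPKM in ulp2 and 37.9 FPKM in slx5). Of 12 haploid-specific genes, 5 were lower and none was higher than in WT, beside 15.7% lower and 22.6% higher over all genes. Among the lower ones were AXL1, which acts in bud site choice and a-factor maturation (-0.60 ± 0.08), and HO, the mating-type switching endonuclease (-0.53 ± 0.09). Both were also below every WT library in all libraries of the other mutants, and HO was lower there than in set1. Against the mean of ulp2 and slx5, 3 of the 12 were higher and 4 were lower, with a median of -0.09.

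Apart from SET1, the COMPASS genes differed little in size. Of the 8 COMPASS genes tested, SET1 included, 1 was higher and 3 were lower. Against the mean of ulp2 and slx5, too, 1 was higher and 3 were lower. SHG1 was lower, at 34.8 ± 2.68 FPKM in set1 and 46.5 ± 5.51 FPKM in WT (-0.40 ± 0.09, adjusted p = 0.00456), SWD2 was lower (-0.23 ± 0.07) and BRE2 was higher (0.20 ± 0.06). SWD1, SWD3, SDC1 and SPP1 were not called, with log2 differences of -0.10, -0.18, -0.17 and 0.07. The call on SWD2 was lost without WT replicate 1, WT replicate 2 or set1 replicate 0 (adjusted p = 0.0619 to 0.108) and with only the compared groups (adjusted p = 0.0949). The call on BRE2 was lost without WT replicate 0, WT replicate 1, set1 replicate 0 or set1 replicate 2 (adjusted p = 0.0507 to 0.0873), with TMM scaling (adjusted p = 0.0532) and with only the compared groups (adjusted p = 0.0625).

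Among 15 genes that act upstream of, beside or against the mark, 1 was higher and 6 were lower, with a median of -0.14. Over all genes 22.6% were higher and 15.7% were lower. Against the mean of ulp2 and slx5, 5 of the 15 were higher and 4 were lower, with a median of 0.12. GIS1, which encodes a Jumonji-domain protein, was higher, at 23.7 ± 4.52 FPKM in set1 and 15.2 ± 2.31 FPKM in WT (0.60 ± 0.14, adjusted p = 0.00391). PAF1 (-0.38 ± 0.09) and LEO1 (-0.38 ± 0.11), subunits of the Paf1 complex, were lower, as were CDC73 (-0.24 ± 0.07) of the same complex, SET2 (-0.22 ± 0.06), the methyltransferase for histone H3 lysine 36, and the ubiquitin proteases UBP8 (-0.25 ± 0.06) and UBP10 (-0.19 ± 0.05). In all libraries of the other mutants, PAF1, LEO1, SET2 and UBP10 were also below every WT library. CDC73 and UBP8 were not. RAD6, BRE1, LGE1, CTR9, RTF1, DOT1, RPH1 and JHD2, the demethylase for the mark, were not called, with values between -0.22 for DOT1 and 0.26 for JHD2. The call on LEO1 was lost without WT replicate 1 or set1 replicate 1 (adjusted p = 0.0502 to 0.0529) and with only the compared groups (adjusted p = 0.0648). That on CDC73 was lost without WT replicate 0, WT replicate 2 or set1 replicate 2 (adjusted p = 0.0575 to 0.0677) and with only the compared groups (adjusted p = 0.0586). UBP10 lost its call without set1 replicate 1 (adjusted p = 0.0529) and with only the compared groups (adjusted p = 0.0978), and SET2 with only the compared groups (adjusted p = 0.0526). Without set1 replicate 0, 3 of the genes not called passed the test, RAD6 and DOT1 as lower (adjusted p = 0.0322 and 0.0247) and JHD2 as higher (0.0277), and JHD2 did so without WT replicate 0 too (0.0315).

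In the Set3 complex, which binds the mark, HST1 was lower at 114 ± 3.88 FPKM in set1 and 141 ± 3.83 FPKM in WT (-0.31 ± 0.04, adjusted p = 1.24e-04), CPR1, a cyclophilin that is among the most abundant transcripts called, was higher (0.27 ± 0.10), and SET3, SNT1, SIF2, HOS2 and HOS4 were not called (log2 differences of -0.08, 0.04, -0.08, -0.15 and -0.16). HST1 was below every WT library in all libraries of the other mutants as well. Of the 7 Set3 complex genes, 2 were higher and none was lower against the mean of ulp2 and slx5. Among 11 silencing genes, RFM1 (-0.64 ± 0.14), SUM1 (-0.29 ± 0.10), SIR2 (-0.27 ± 0.08) and RAP1 (-0.25 ± 0.06) were lower and SIR3 was higher (0.23 ± 0.08). SUM1 and RAP1 were below every WT library in all libraries of the other mutants, and RAP1 was lower there than in set1. RFM1 and SIR2 were not below every WT library in all of them. Against the mean of ulp2 and slx5, 3 of the 11 were higher and 1 was lower. SUM1, RFM1 and HST1 encode the subunits of a repressor of middle sporulation genes, and HST1 is given above. SUM1 had 31.6 ± 4.94 FPKM in set1 and 38.5 ± 2.19 FPKM in WT. RFM1 had 16.6 ± 2.799 FPKM in set1 and 26.3 ± 2.68 FPKM in WT. SIR4, SIR1, SAS2, HST3, HST4 and ESC1 were not called, with log2 differences of 0.15, -0.12, -0.17, 0.07, -0.30 and -0.02. The call on CPR1 was lost without WT replicate 1, WT replicate 2, set1 replicate 0 or set1 replicate 1 (adjusted p = 0.0886 to 0.14), with median-ratio scaling (adjusted p = 0.0507) and with only the compared groups (adjusted p = 0.128). That on SUM1 was lost without WT replicate 0, WT replicate 1, set1 replicate 1 or set1 replicate 2 (adjusted p = 0.0836 to 0.137), with only the compared groups (adjusted p = 0.121) and with a replicate block (adjusted p = 0.0514). SIR2 lost its call without WT replicate 1 (adjusted p = 0.0551) and with only the compared groups (adjusted p = 0.0634), SIR3 without WT replicate 2 or set1 replicate 0 (adjusted p = 0.0848 to 0.115), with only the compared groups (adjusted p = 0.121) and under quantile normalization (adjusted p = 0.083), and RAP1 with only the compared groups (adjusted p = 0.0509). HST1 and RFM1 were called under each alternative run. HOS4 passed as lower without set1 replicate 0 (adjusted p = 0.0446), and HST4 without set1 replicate 1 (adjusted p = 0.0106). Of 11 histone genes, the 2 copies of the H2B gene differed from WT in opposite directions, and the other 9 were not called. HTB1 was higher (2343 ± 196 FPKM in set1 and 1580.3 ± 210.1 FPKM in WT). HTB2 was lower (1460.5 ± 43.2 FPKM in set1 and 1879 ± 177 FPKM in WT). In all libraries of the other mutants HTB2 was lower still, at 1071 to 1404 FPKM. Against the mean of ulp2 and slx5, 9 of the 11 histone genes were higher and none was lower, with a median of 0.29.

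Genes of the induced environmental stress response and of carbohydrate storage were mostly higher. Of 46 genes of the induced stress response, 42 were higher and none was lower, with a median log2 difference of 1.03 against 0.01 over all genes. Of 18 genes of trehalose and glycogen metabolism, 17 were higher and none was lower, with a median of 0.73. GSY1 encodes a glycogen synthase (chrVI:174265-176391) and had 70.5, 64.5 and 90.8 FPKM in set1 cells, against 14.6, 12.4 and 16.3 FPKM in WT cells (log2 difference 2.30 ± 0.13, adjusted p = 3.10e-08). Every set1 library lay above every other library of the series, with mean levels of 12.2 FPKM in ulp2, 19.6 FPKM in slx5 and 18.9 FPKM in ulp2 slx5. GSY2, the other glycogen synthase, had 56.1, 50.9 and 73.9 FPKM in set1 cells, against 14.1, 13.04 and 15.9 FPKM in WT cells, and the other mutants had mean levels of 49.8 FPKM in ulp2, 54.4 FPKM in slx5 and 93.5 FPKM in ulp2 slx5, so the set1 libraries did not stand apart from them. GPH1, glycogen phosphorylase (2.04 ± 0.09), and TSL1, a regulatory subunit of trehalose synthase (1.43 ± 0.16), were higher than in WT and lower than in the mean of ulp2 and slx5 (-0.89 ± 0.08 and -0.93 ± 0.13). GPH1 had 19.2 to 26.25 FPKM in set1, 20.7 to 21.1 FPKM in ulp2 and 76.5 to 79.2 FPKM in slx5, so within that mean only slx5 lay above set1. TSL1 had 14.2 to 24.3 FPKM in set1, 23.5 to 28.3 FPKM in ulp2 and 40.6 to 49.7 FPKM in slx5. HXK1, a hexokinase induced when glucose runs low, had 142, 132 and 169 FPKM in set1 cells, against 18.3, 18.01 and 20.1 FPKM in WT cells (2.90 ± 0.11, adjusted p = 8.23e-10). SOL4, a phosphogluconolactonase, and SPI1, a cell wall protein of stationary cells, differed from WT by 2.49 ± 0.18 and 2.39 ± 0.16. In ulp2, slx5 and ulp2 slx5 respectively, HXK1 had 55.1 to 73.2, 403 to 488 and 387 to 399 FPKM. SOL4 had 11.07 to 18.1, 41.6 to 44.7 and 77.2 to 82.1 FPKM. SPI1 had 99.6 to 100.5, 106 to 156 and 326 to 362 FPKM. Against the mean of ulp2 and slx5, 13 of the 46 stress genes were higher and 23 were lower, with a median of -0.27, and 6 of the 18 storage genes were higher and 5 were lower, with a median of 0.17.

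The stress response element CCCCT, searched on both strands in the 500 bases before the start codon, was found for 34.2% of the 5744 tested protein-coding genes and for 44 of the 46 stress genes, of which 40 were higher. It was found for 95.7% of the stress list and 95.2% of its higher members, so it did not mark out the genes called. The list groups genes by a shared response, so a high share comes with its choice. One of its dense stretches, in front of TSL1 and with the element in capitals, is shown with the RefSeq sequence of R64:
TSL1 (chrXIII:70385-70471, plus strand, from 239 to 153 bases before the start codon): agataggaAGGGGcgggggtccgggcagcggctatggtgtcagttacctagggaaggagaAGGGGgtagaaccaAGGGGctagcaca
The element is read there on the minus strand, as AGGGG on the printed strand, in 3 places.

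More hexose transporter genes were higher than lower. Of 15 hexose transporter and sensor genes tested, 9 were higher and none was lower, with a median of 0.67, and under quantile normalization 8 were higher and 1 was lower. In these genes 4 were higher and 1 was lower against the mean of ulp2 and slx5, with a median of -0.14. HXT4, a high-affinity transporter, had 223, 236 and 256 FPKM in set1 cells, against 71.03, 51.4 and 71.4 FPKM in WT cells (1.88 ± 0.10, adjusted p = 3.04e-08). Every set1 library lay above those of the other mutants too, whose means were 145 FPKM in ulp2, 130.5 FPKM in slx5 and 108 FPKM in ulp2 slx5. HXT7 and HXT9 differed by 1.45 ± 0.09 and 1.30 ± 0.15, with low levels of at most 2.87 FPKM in the WT libraries for HXT7. HXT10 had 3.59, 2.58 and 2.43 FPKM in set1 cells, against 0.437, 0.341 and 0.148 FPKM in WT cells, and it passed the filter on low values through set1 alone, so its difference was selected for. Without it 8 of 14 were higher, with a median of 0.55. HXT7 and HXT9 have near-identical copies (HXT6 and HXT11), so their reads may be divided uncertainly. Of 49 genes of the TCA cycle and respiration, 26 were higher and none was lower, with a median of 0.26. Of these 49, 4 were higher and 20 were lower against the mean of ulp2 and slx5, with a median of -0.13. CYC7, an isoform of cytochrome c, had 23.2, 37.9 and 45.6 FPKM in set1 cells, against 9.44, 8.78 and 6.79 FPKM in WT cells, and averaged 17.8 FPKM in ulp2, 54.1 FPKM in slx5 and 69.9 FPKM in ulp2 slx5. CIT1, citrate synthase, NDE1, an NADH dehydrogenase, and LSC2, a subunit of succinyl-CoA ligase, differed by 0.88 ± 0.06, 0.83 ± 0.06 and 0.79 ± 0.05. In glycolysis, 7 of 22 genes were higher and 2 were lower, near the shares over all genes, and 12 were higher and 4 were lower against the mean of ulp2 and slx5. TDH1 differed from WT by 1.75 ± 0.10. PDC6, a minor pyruvate decarboxylase, had 5.65, 4.83 and 6.21 FPKM in set1 cells, against 0.253, 0.726 and 0.715 FPKM in WT cells, and it too passed the filter through set1 alone. Without it 6 of 21 were higher. PDC1, the main pyruvate decarboxylase and the most abundant gene called higher, had 10275, 9339 and 9283 FPKM in set1 cells, against 7257, 6514 and 7279 FPKM in WT cells. TDH2, a glyceraldehyde-phosphate dehydrogenase, was lower, at 4872 ± 185 FPKM in set1 and 6224 ± 564 FPKM in WT, a call lost with only the compared groups (adjusted p = 0.0697).

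**Figure D3:**
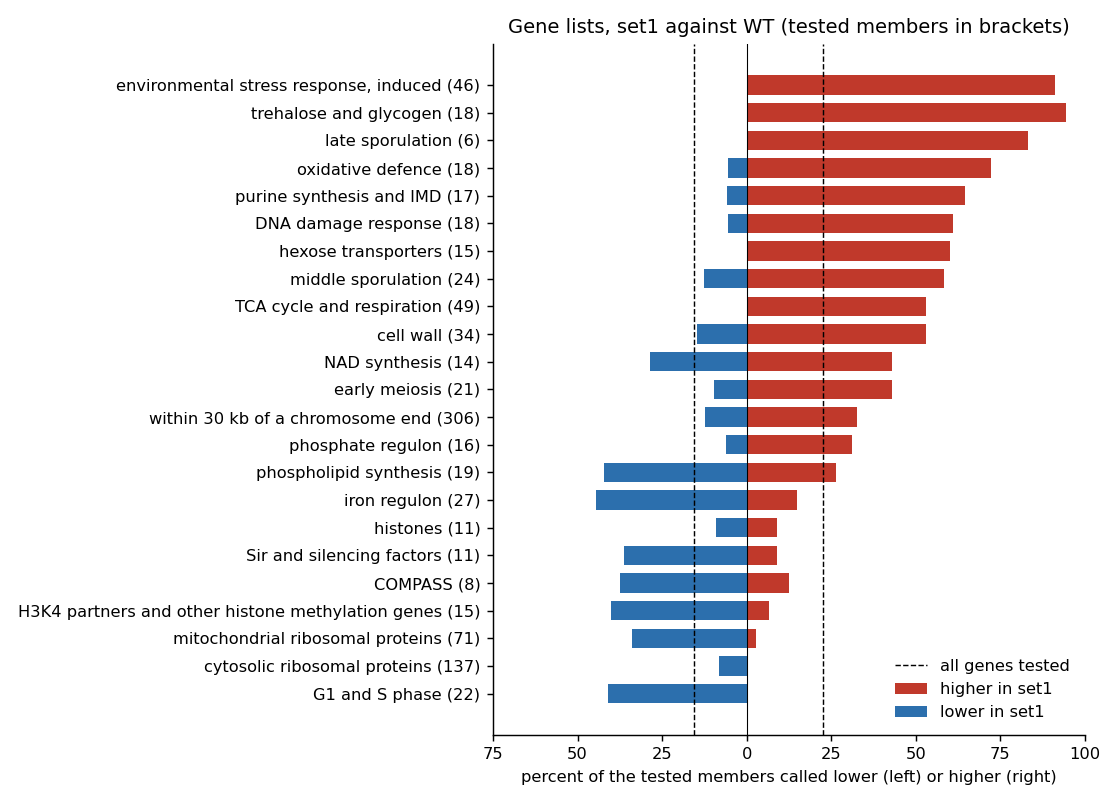
Percent of the tested members of each gene list that were called higher in set1 (to the right) or lower in set1 (to the left), with the number of tested members in brackets and dashed lines at the percentages over all genes tested (22.6% higher, 15.7% lower). The stress, storage and late sporulation lists lie far right of the dashed line, while the histone-modifying and silencing lists, the iron regulon and the G1 and S phase list lie left of the line for lower genes.

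NAD synthesis held both genes that were higher and genes that were lower. Of 14 tested, 6 were higher and 4 were lower, and without set1 replicate 0 the lower ones numbered 2. The comparison with the mean of ulp2 and slx5 gave 5 higher and 3 lower. BNA2, the dioxygenase that opens the pathway from tryptophan, had 23.8, 17.2 and 22.4 FPKM in set1 cells, against 2.36, 2.77 and 3.18 FPKM in WT cells (2.55 ± 0.12, adjusted p = 4.70e-09). TNA1, the transporter for nicotinic acid, had 570.1, 513 and 542 FPKM in set1 cells, against 171, 161 and 175 FPKM in WT cells (1.67 ± 0.05, adjusted p = 3.68e-11). BNA4, kynurenine hydroxylase, had 60.5, 71.4 and 61.8 FPKM in set1 cells, against 23.2, 19.1 and 23.2 FPKM in WT cells (1.52 ± 0.09, adjusted p = 7.98e-08). For TNA1 and BNA4 every set1 library lay above all 12 others, and TNA1 averaged 122 FPKM in ulp2, 164 FPKM in slx5 and 189 FPKM in ulp2 slx5. Their log2 differences from the mean of ulp2 and slx5 were 1.93 ± 0.04 and 1.24 ± 0.08, against 0.22 ± 0.10 for BNA2, which averaged 15.8 FPKM in ulp2 and 20.1 FPKM in slx5. PNC1, the nicotinamidase, differed from WT by 0.79 ± 0.07, and BNA6, which joins the product of the tryptophan pathway to the nucleotide, differed by -0.27 ± 0.07. BNA6 was chosen for mention after its values were seen.

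Purine synthesis genes were mostly higher: 11 of 17 were higher and 1 was lower, with a median of 0.42. ADE17, which completes the ring of inosine monophosphate, had 237, 230.1 and 237 FPKM in set1 cells, against 77.7, 79.2 and 76.7 FPKM in WT cells (1.58 ± 0.05, adjusted p = 1.59e-10). The other 3 largest were SHM2, a serine hydroxymethyltransferase, at 1.02 ± 0.04, ADE1 at 0.90 ± 0.05 and ADE12, adenylosuccinate synthase, at 0.84 ± 0.13. All 3 set1 libraries lay above the 12 others for ADE17, whose means were 82.7 FPKM in ulp2, 75.8 FPKM in slx5 and 86.9 FPKM in ulp2 slx5. Against the mean of ulp2 and slx5, 11 of the 17 were higher and 2 were lower.

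In the phosphate regulon, 5 of 16 genes were higher and 1 was lower than in WT, with a median of 0.04 that is close to that of all genes, while 11 of the 16 were higher and 1 was lower against the mean of ulp2 and slx5, with a median of 0.57. PHO89, a sodium-coupled phosphate transporter, had 127, 117 and 117 FPKM in set1 cells, against 29.4, 34.3 and 32.3 FPKM in WT cells (1.88 ± 0.06, adjusted p = 1.59e-10), and its set1 libraries lay above all 12 others. PHO11, an acid phosphatase whose reads may be shared with its near-identical copy PHO12 (0.70 ± 0.08), PHM8 (0.64 ± 0.10) and VTC1, of the polyphosphate polymerase (0.37 ± 0.10), were also higher, VTC1 with a call lost with only the compared groups (adjusted p = 0.0926). OLE1, the fatty acid desaturase, led a phospholipid synthesis list in which 5 of 19 genes were higher and 8 were lower than in WT, and 11 were higher and 3 were lower than in the mean of ulp2 and slx5. It had 1164, 1159 and 1051 FPKM in set1 cells, against 451, 375 and 369.5 FPKM in WT cells (1.499 ± 0.10, adjusted p = 1.24e-07). The set1 libraries again lay above all others, with means of 753 FPKM in ulp2, 822 FPKM in slx5 and 847 FPKM in ulp2 slx5.

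Some genes of sporulation, which are little used in growing haploid cells, were higher in set1, at low levels, and their number depended on the scaling. Of 24 middle sporulation genes tested, 14 were higher and 3 were lower, with a median of 0.56, and without set1 replicate 0 the lower ones numbered 1. Of 6 late genes, 5 were higher and none was lower, with a median of 0.70, and of 21 early meiosis genes 9 were higher and 2 were lower, with a median of 0.25. Under quantile normalization these counts were 8 higher and 4 lower, 2 higher and none lower, and 5 higher and 3 lower, and the early median was -0.03. LOH1 had 26.97, 32.5 and 37.3 FPKM in set1 cells, against 7.67, 7.74 and 7.76 FPKM in WT cells (1.92 ± 0.11, adjusted p = 2.60e-08), and its set1 libraries lay above all 12 others. CDA1, a chitin deacetylase of the spore wall, had 16.8, 20.2 and 16.2 FPKM in set1 cells, against 3.45, 3.62 and 1.46 FPKM in WT cells. SPR3, a sporulation septin, had 5.43, 5.09 and 3.35 FPKM in set1 cells, against 0.844, 0.366 and 0.953 FPKM in WT cells, and it passed the filter through set1 alone, so its difference was selected for. Without it 13 of 23 middle genes were higher, with a median of 0.56. SPS22, of spore wall formation, had 4.32, 4.34 and 5.42 FPKM in set1 cells, against 0.839, 0.655 and 1.07 FPKM in WT cells. SPR3 and SPS22 were both at the level of a few FPKM in set1 and below 1.1 FPKM in WT. Against the mean of ulp2 and slx5, 5 of the 24 middle genes were higher and 8 were lower, with a median of -0.10. None of the 6 late genes was higher and 2 were lower in that comparison, and of the 21 early genes 1 was higher and 11 were lower.

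The middle sporulation element, searched as GNCACAAA on both strands in the same 500 bases, was found for 18 of the 24 middle genes, for 10 of the 14 that were higher, and for 6.93% of all tested protein-coding genes. That is 75% of the list and 71.4% of its higher members, so the element did not mark out the genes called. A high share comes with the choice of this list. Its matches in front of the named genes SPR3 and SPS22 are shown in capitals, SPS22 on the opposite strand:
SPR3 (chrVII:607253-607300, plus strand, from 310 to 263 bases before the start codon): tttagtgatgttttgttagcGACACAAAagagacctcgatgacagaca
SPS22 (chrIII:42044-42091, plus strand, from 121 to 74 bases before the start codon): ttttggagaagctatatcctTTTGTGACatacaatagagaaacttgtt
LOH1 and CDA1 held none in this window.

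The iron regulon held more lower than higher genes. Of 27 genes tested, 12 were lower and 4 were higher, with a median of -0.18. FIT3 and FIT2 encode cell wall mannoproteins that help retain iron-loaded siderophores. FIT3 had 90.98, 103 and 107 FPKM in set1 cells, against 355, 426 and 333 FPKM in WT cells (-1.88 ± 0.08, adjusted p = 2.96e-09). FIT2 had 54.5, 81.9 and 99.8 FPKM in set1 cells, against 197, 221 and 194 FPKM in WT cells (-1.41 ± 0.16, adjusted p = 1.74e-05). For both genes every set1 library lay below all 12 others. The means of FIT3 were 276 FPKM in ulp2, 148 FPKM in slx5 and 162 FPKM in ulp2 slx5, and those of FIT2 were 138 FPKM in ulp2, 199.8 FPKM in slx5 and 213 FPKM in ulp2 slx5. ARN2, a siderophore transporter, differed by -0.88 ± 0.07. TIS11, which brings about the decay of transcripts of iron-using proteins, had 15.99, 19.6 and 13.8 FPKM in set1 cells, against 23.9, 34.95 and 34.5 FPKM in WT cells (-0.87 ± 0.14, adjusted p = 4.32e-04), and its set1 libraries again lay below all others. Against the mean of ulp2 and slx5, 16 of the 27 were lower and 2 were higher, with a median of -0.27.

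The core that the iron regulator Aft1 binds, TGCACCC, was searched on both strands in the 500 bases before the start codon. It was found for 21 of the 27 iron genes, for 11 of the 12 that were lower, and for 2.37% of the 5744 tested protein-coding genes. The list groups genes by iron regulation, so a high share comes with its choice and is no support for the differences in set1. The stretches of FIT3, FIT2 and TIS11 that hold most of its matches are shown with the core in capitals, as TGCACCC or, on the other strand, GGGTGCA:
FIT3 (chrXV:1061228-1061345, minus strand, from 290 to 173 bases before the start codon): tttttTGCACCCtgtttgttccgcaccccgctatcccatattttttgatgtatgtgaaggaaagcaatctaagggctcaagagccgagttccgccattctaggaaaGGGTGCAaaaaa
FIT2 (chrXV:1059195-1059293, plus strand, from 336 to 238 bases before the start codon): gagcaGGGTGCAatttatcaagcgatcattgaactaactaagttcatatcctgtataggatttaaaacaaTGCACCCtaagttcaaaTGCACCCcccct
TIS11 (chrXII:416819-416913, minus strand, from 255 to 161 bases before the start codon): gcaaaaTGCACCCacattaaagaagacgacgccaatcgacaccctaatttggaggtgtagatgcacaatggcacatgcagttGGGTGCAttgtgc
FIT2 holds a further match nearer its start codon, and its last printed core is followed directly by CCCCT without overlap. A match of letters is not evidence of binding.

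**Figure D4:**
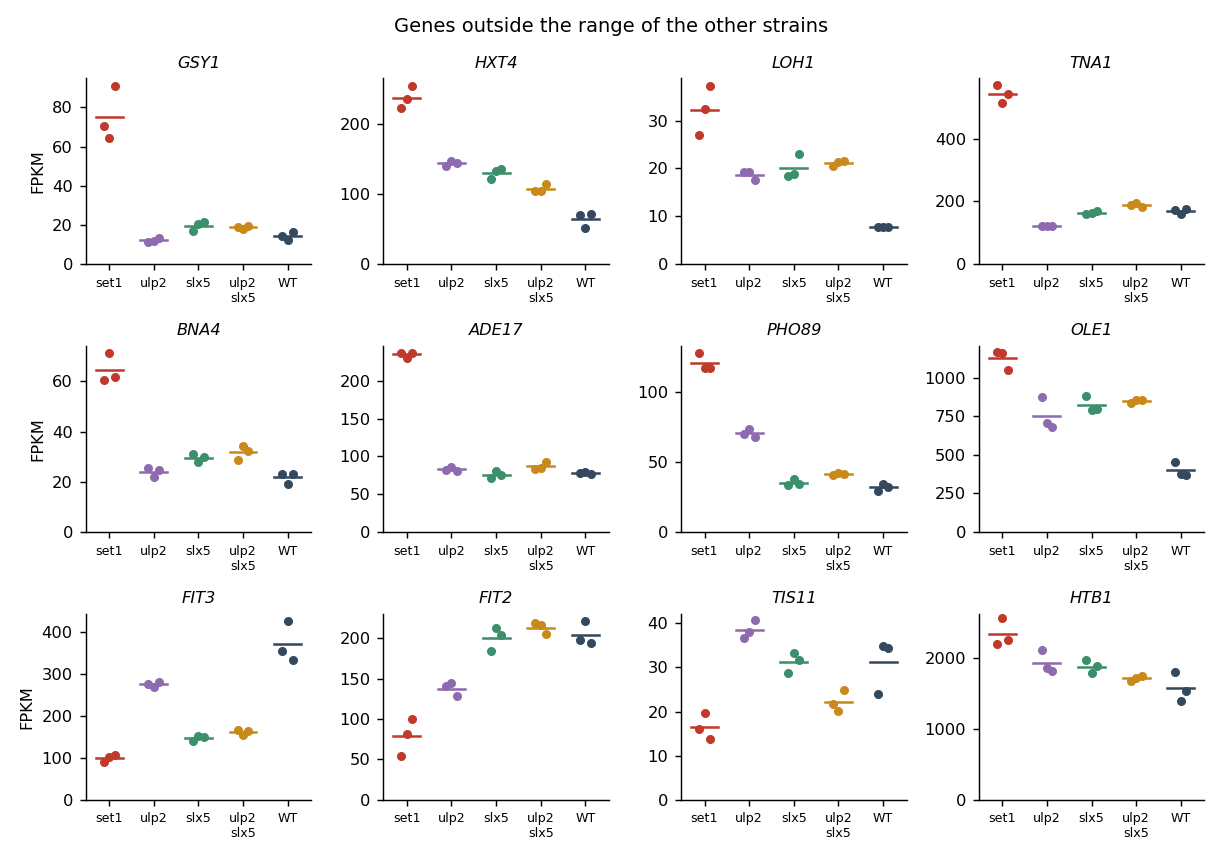
Level in FPKM of 12 genes in the 15 libraries, with the set1 libraries at the left and WT at the right of each panel, each point a library and each bar the mean of 3. The set1 points lie above all other libraries for the 9 genes GSY1, HXT4, LOH1, TNA1, BNA4, ADE17, PHO89, OLE1 and HTB1, and below all of them for FIT3, FIT2 and TIS11.

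Other lists of transcripts gave smaller or mixed differences. The shares over all genes, for comparison, were 22.6% higher and 15.7% lower against WT. They were 25.1% higher and 23.3% lower against the mean of ulp2 and slx5. Of 22 G1 and S phase genes, 9 were lower and none was higher, with a median of -0.18: RNR1, the large subunit of ribonucleotide reductase, had 83.3 ± 7.28 FPKM in set1 and 143 ± 15.2 FPKM in WT, and the cohesin gene MCD1, the cyclin gene CLN1 and PCL2 differed by -0.71 ± 0.09, -0.70 ± 0.08 and -0.62 ± 0.13. Of these 22, 6 were higher and 8 were lower against the mean of ulp2 and slx5. MCD1 and CLN1 were also below every WT library in all libraries of the other mutants, while RNR1 and PCL2 were not. CLN1 had 32.6 to 42.8 FPKM in the other mutants, 43.1 to 46.1 FPKM in set1 and 67.98 to 77.8 FPKM in WT. In the DNA damage list 11 of 18 were higher and 1 was lower, with HUG1, an inhibitor of ribonucleotide reductase, at 298 ± 7.77 FPKM in set1 and 44.2 ± 6.698 FPKM in WT and RNR3 differing by 0.81 ± 0.11. None of the 18 was higher against the mean of ulp2 and slx5 and 11 were lower, while HUG1 averaged 119 FPKM in ulp2, 1002 FPKM in slx5 and 272 FPKM in ulp2 slx5. In oxidative defence, 13 of 18 were higher and 1 was lower, with the peroxiredoxin gene AHP1 at 1918 ± 94.7 FPKM in set1 and 513 ± 18.5 FPKM in WT and the peroxidase gene GPX2 differing by 1.32 ± 0.14. In this list 1 was higher and 9 were lower against the mean of ulp2 and slx5, and AHP1 averaged 2239 FPKM in ulp2, 3884 FPKM in slx5 and 3954 FPKM in ulp2 slx5. In the cell wall list 18 of 34 were higher and 5 were lower, with CWP1 at 190.3 ± 8.69 FPKM in set1 and 33.3 ± 2.87 FPKM in WT. Here 8 were higher and 22 were lower against the mean of ulp2 and slx5, and CWP1 averaged 281 FPKM in ulp2, 394 FPKM in slx5 and 589 FPKM in ulp2 slx5. Of 71 mitochondrial ribosomal protein genes 2 were higher and 24 were lower (median -0.15), and of 137 cytosolic ones none was higher and 11 were lower (median -0.02); under quantile normalization 3 of the cytosolic genes were higher and 19 were lower. Relative to the mean of ulp2 and slx5, 86 of the 137 cytosolic genes were higher and 3 were lower, with a median of 0.35, and of the 71 mitochondrial ones 8 were higher and 9 were lower. RPS9A and RPS14B, minor copies of ribosomal protein gene pairs, fell furthest among the 11 cytosolic genes called lower. Both were also below every WT library in all libraries of the other mutants, at 114 to 186 FPKM for RPS9A and 380 to 553 FPKM for RPS14B. RPS9A had 120.5 ± 12.4 FPKM in set1 and 236 ± 26.8 FPKM in WT. RPS14B had 480.4 ± 15.1 FPKM in set1 and 851 ± 36.5 FPKM in WT. Reads of such near-identical copies may be divided uncertainly by the counting.

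Position along chromosomes was described for the tested genes. Within 30 kb of a chromosome end, 100 of 306 genes were higher and 38 were lower, with a median of 0.16. Of these, 5 passed the filter through set1 alone, and without them 96 of 301 were higher. In all, 45.1% of the 306 were called, beside 38.2% of all genes tested (22.6% higher and 15.7% lower). For the 306 the direction was the opposite against the mean of ulp2 and slx5, with 42 higher and 109 lower and a median of -0.18. The shares over all genes in that comparison were 25.1% higher and 23.3% lower. Against WT the median was 0.08 for the 63 genes within 10 kb, 0.20 for the 108 genes between 10 and 20 kb and 0.12 for the 135 genes between 20 and 30 kb, against 0.01 for the 4368 genes beyond 100 kb. Under quantile normalization the end genes gave 67 higher and 60 lower, with a median of -0.01. That scaling gave 1146 higher and 1230 lower over all 6318 genes, with a median of -0.03. Over the 16 chromosomes, medians ran from -0.01 for chromosome IX to 0.11 for chromosome VI.

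The largest single differences were then described. Among the 15 largest rises outside the mating-type and marker genes, DPA10, TMA10, YBR200W-A, YGL188C-A and YGL258W-A each had at least 1 WT library under 3 FPKM, and the call on YGL188C-A was lost without set1 replicate 2 (adjusted p = 0.052) and with only the compared groups (adjusted p = 0.0757). TMA10, a ribosome-associated protein gene of stressed cells, had 27.7, 34.4 and 40.7 FPKM in set1 cells, against 14.6, 2.57 and 2.82 FPKM in WT cells, and its WT libraries disagreed among themselves. YFR052C-A rose beside HXK1, the gene of neighbouring systematic name. Among the 15 largest falls, YBR131C-A and the small nucleolar RNA snR87 were listed at 0 in all set1 libraries, and snR87 had 84.9, 29.9 and 16.9 FPKM in the WT libraries. Both passed the filter through WT alone, so their differences were selected for. In slx5, snR87 had 35.3, 0 and 20.3 FPKM, so a listed 0 also occurred in a library of another strain. YBR131C-A had 80.6, 164 and 63.2 FPKM in the WT libraries and averaged 70.7 FPKM in ulp2 slx5, and it was listed at 0 in the ulp2 and slx5 libraries, so it was seen in the strains with a-type expression. Of the annotated protein-coding genes in that group, RGS2, a regulator of G protein signalling, had 39.01, 34.4 and 36.7 FPKM in set1 cells, against 80.01, 100.4 and 89.1 FPKM in WT cells (-1.26 ± 0.11, adjusted p = 2.78e-06), with every set1 library below all others. The other mutants were below WT for RGS2 too. They had 46.1 to 65.6 FPKM in ulp2, 44.1 to 49.5 FPKM in slx5 and 40.1 to 42.3 FPKM in ulp2 slx5. GLC7, the catalytic subunit of protein phosphatase 1, had 394, 410.2 and 353 FPKM in set1 cells, against 968, 686 and 802 FPKM in WT cells (-1.07 ± 0.11, adjusted p = 7.19e-06). YER134C, a phosphatase gene, had 55.05, 62.4 and 59.8 FPKM in set1 cells, against 179, 191 and 164 FPKM in WT cells. EHT1, an acyltransferase of ethyl ester synthesis, had 53.1, 56.1 and 54.04 FPKM in set1 cells, against 115, 119.6 and 124 FPKM in WT cells. For GLC7, YER134C and EHT1 the other mutants likewise had means on the set1 side of WT. GLC7 averaged 354 FPKM in ulp2, 389 FPKM in slx5 and 326 FPKM in ulp2 slx5. YER134C averaged 59.8 FPKM in ulp2, 79.9 FPKM in slx5 and 75.2 FPKM in ulp2 slx5. EHT1 averaged 59.03 FPKM in ulp2, 67.1 FPKM in slx5 and 58.2 FPKM in ulp2 slx5. The rows YER133W-A, YER137C and YER137W-A, near GLC7 (YER133W) and YER134C by systematic name, were also among the 15 largest falls. YER137C and YER137W-A were below every WT library in all libraries of the other mutants. YER133W-A had a WT library at 10.3 FPKM, within the range of the other mutants. Whether this stretch differs as a whole between WT and the other strains was not tested. GYP8, a Rab GTPase activator, had 22.4 ± 0.821 FPKM in set1 and 51.5 ± 3.05 FPKM in WT; its neighbour by systematic name is STE2, and the strandedness of the counting was not stated. Of the genes that were most abundant in WT, ACT1, the actin gene, was higher, at 2082 ± 137 FPKM in set1 and 1666 ± 139 FPKM in WT, a call lost with only the compared groups (adjusted p = 0.0594). PSA1, which makes GDP-mannose, was lower, at 2733 ± 117 FPKM in set1 and 3314 ± 422 FPKM in WT, a call lost without WT replicate 0, WT replicate 2, set1 replicate 0 or set1 replicate 2 (adjusted p = 0.0687 to 0.126) and with only the compared groups (adjusted p = 0.147).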

How the data were processed

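Polyadenylated RNA of 15 libraries in 5 groups of 3 was measured. The authors deposited a single table of FPKM for 7126 genes; per the submitters' processing notes the tools were TopHat2 2.0.12 and Cuffdiff (no version stated), with build R64. Parameters, library layout and strandedness are not given in the sources used here. FPKM were used as deposited, without further scaling.

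Genes with at least 1 FPKM in 3 of the 6 set1 and WT libraries were kept (24 passed through set1 alone, 6 through WT alone). The third highest value was 1.00 FPKM for YNL109W, just inside, and 0.990 FPKM for CDA2, just outside. Values were analysed as log2(FPKM + 1) with limma 3.58.1 in R 4.3.3 (lmFit, eBayes with a trend), in a fit of all 15 libraries with 10 residual degrees of freedom; errors of log2 differences are SE, and errors of FPKM means are SD over 3 libraries. The +1 understates differences of low genes. A gene was called at a Benjamini-Hochberg adjusted p under 0.05. The procedure was tested on simulated data. Symbols and positions came from the RefSeq annotation of R64, which matched 6048 IDs. Python 3.11.15, pandas 2.3.3 and numpy 2.4.6 were used for tables, promoter searches and sequences.

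Members, gene lists and tests were chosen with earlier results of these data known. Named genes were SET1 and its 3 neighbours on each side, markers and mating-type genes, the 15 largest non-overlapping rises and falls with a mean of at least 10 FPKM, the 5 most abundant called genes in each direction, all members of the COMPASS, histone methylation, Set3 and silencing lists, and up to 4 called members with the largest change of each other list. Lists were described by counts and medians without a test. Alternatives were other pseudocounts and filters, median-ratio, TMM and quantile scaling, only the compared groups, no trend, a replicate block and leaving out each library.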

Additional observations from a re-analysis of the deposited data

How the results depend on the processing

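The counts of 1426 higher and 989 lower genes kept within 1.5 times under other pseudocounts, filters, scalings, no trend and the omission of any library. Using only the compared groups gave 948 higher, 545 lower and 1493 called in all, where fewer residual degrees of freedom follow from its construction. Counts of 2-fold differences were 111 higher and 22 lower with a pseudocount of 5, which shrinks low genes by construction, and 132 higher with a filter of 10 FPKM, which tests fewer genes. Leaving out single libraries gave 1262 to 1342 higher, 790 to 976 lower and 2086 to 2238 called genes. No label pairs the replicate numbers, and same-numbered deviations correlated by -0.042, -0.131 and -0.004; a replicate block gave 1422 higher and 991 lower genes. Against the mean of ulp2 and slx5, every alternative stayed within 1.5 times of 3056 called genes, from 2682 to 3097. Of the 247 named genes, 220 were called and 177 of these were called in the same direction under every alternative that gave them a value. No named gene turned in direction with a call, and the commonest losses were 32 with only the compared groups, 18 without WT replicate 1 and 15 under quantile normalization; the cause was not tested. The shallow set1 replicate 0 limits the precision for low genes.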
